A study of Homo sapiens with 28 samples.

Results

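The S100 proteins are a family of small calcium sensors, and 9 of their genes were followed here through treatment of lung cancer cells with inhibitors of DNA methylation. The genes were S100A2, S100A4, S100A6, S100A8, S100A9, S100A10, S100A11, S100A13 and S100P, taken as every probe set annotated with 1 of these symbols alone. They gave 11 probe sets of the 22277 on the array and 9 of its 11963 singly named genes. All 28 arrays were used. Of the 9 genes, 7 passed the filter on low signal and were among the 8024 genes tested. S100A8 and S100A9 did not pass and are described by their signals only.

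Total RNA came from A549 and H1299, established lines of human non-small cell lung cancer. Each line received azacitidine or decitabine at 0.3, 1 or 3 µM, or the dimethyl sulfoxide vehicle, for 48 h with fresh drug daily, which made 14 groups of 2 arrays each. Azacitidine is a ribonucleoside analog of cytidine and decitabine is the deoxyribose form of the same analog. The labels do not say whether the 2 arrays of a group came from separate cultures, so the p-values measure only the spread between these samples, which may be technical. Replicate 1 of A549 with 3 µM decitabine is labelled as a repeat. The line labels were checked with CDKN2A, a gene deleted in A549, which had a fitted difference of -3.62 on the log2 scale between vehicle-treated A549 and H1299.

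S100 proteins carry paired EF-hand motifs, loops that hold calcium. Calcium opens a surface on the protein that then binds partners such as annexins, myosins and cytoskeletal proteins, and some members are released and act on receptors of neighbouring cells. Most of the genes lie in a cluster on the long arm of chromosome 1, beside the epidermal differentiation genes. Several members are raised in carcinomas and S100A2 is lowered in some. Methylation of CpG sites near the start of S100 genes has been reported in tumours, and azacitidine and decitabine trap DNA methyltransferases after they enter DNA.

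Because the drugs act on methylated CpG sites, the bases before the start of 5 members are shown, with each CpG in capitals. They were read from RefSeq promoter tables of the build GRCh38.p14, which hold an entry for all 9 members. Each run is the 250 bases before an annotated start, 5′ to 3′ on the strand of the gene. S100A6, S100A4, S100A2 and S100P were chosen because their signals moved most, and S100A10 because its window is as rich in CpG as that of S100A6.
S100A6, minus strand, chr1:153535992-153536241: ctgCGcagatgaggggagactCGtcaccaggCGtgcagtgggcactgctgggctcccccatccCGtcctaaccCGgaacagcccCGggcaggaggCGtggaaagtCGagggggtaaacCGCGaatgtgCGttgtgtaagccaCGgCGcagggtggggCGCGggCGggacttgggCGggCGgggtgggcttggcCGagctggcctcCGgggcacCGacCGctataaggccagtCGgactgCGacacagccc
S100A4, minus strand, chr1:153545807-153546056: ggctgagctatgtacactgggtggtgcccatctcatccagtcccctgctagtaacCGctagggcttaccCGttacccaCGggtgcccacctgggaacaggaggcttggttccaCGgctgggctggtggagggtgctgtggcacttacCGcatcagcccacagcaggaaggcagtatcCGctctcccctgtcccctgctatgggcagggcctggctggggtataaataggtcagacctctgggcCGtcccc
S100A2, minus strand, first start, chr1:153565845-153566094: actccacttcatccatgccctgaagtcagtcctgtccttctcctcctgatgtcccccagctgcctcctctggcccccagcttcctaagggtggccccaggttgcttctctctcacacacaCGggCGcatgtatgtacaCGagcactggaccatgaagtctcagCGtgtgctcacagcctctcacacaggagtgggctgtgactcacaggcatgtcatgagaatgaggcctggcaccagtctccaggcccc
S100P, plus strand, chr4:6693628-6693877: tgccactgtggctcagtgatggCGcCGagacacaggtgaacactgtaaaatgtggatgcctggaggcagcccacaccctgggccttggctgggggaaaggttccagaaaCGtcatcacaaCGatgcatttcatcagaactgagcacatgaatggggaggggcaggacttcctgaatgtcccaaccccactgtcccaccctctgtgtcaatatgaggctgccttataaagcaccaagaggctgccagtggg
S100A10, minus strand, chr1:151993860-151994109: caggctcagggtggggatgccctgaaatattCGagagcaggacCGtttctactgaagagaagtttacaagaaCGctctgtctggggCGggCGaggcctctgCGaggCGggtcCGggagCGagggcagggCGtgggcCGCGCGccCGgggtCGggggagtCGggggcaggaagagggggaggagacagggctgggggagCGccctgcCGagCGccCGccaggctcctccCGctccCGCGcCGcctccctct

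The motif counted was CG, which reads the same on both strands. The windows of S100A6 and S100A10 held 24 CpG sites each, more than 76.3% of the 35116 windows in the table. S100A11 held 15. S100A13 held 15, 10 and 8 before its 3 annotated starts. S100A4 held 7, and S100A2 (first start), S100P and S100A9 held 4 each. S100A2 held 3 before its second start and S100A8 held 2 before each of its 3 starts. The median over all windows was 11, and 93.9% held at least 1. CpG-dense and CpG-poor starts were thus both present among the members. Methylation itself was not measured in these files.

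**Figure D1:**
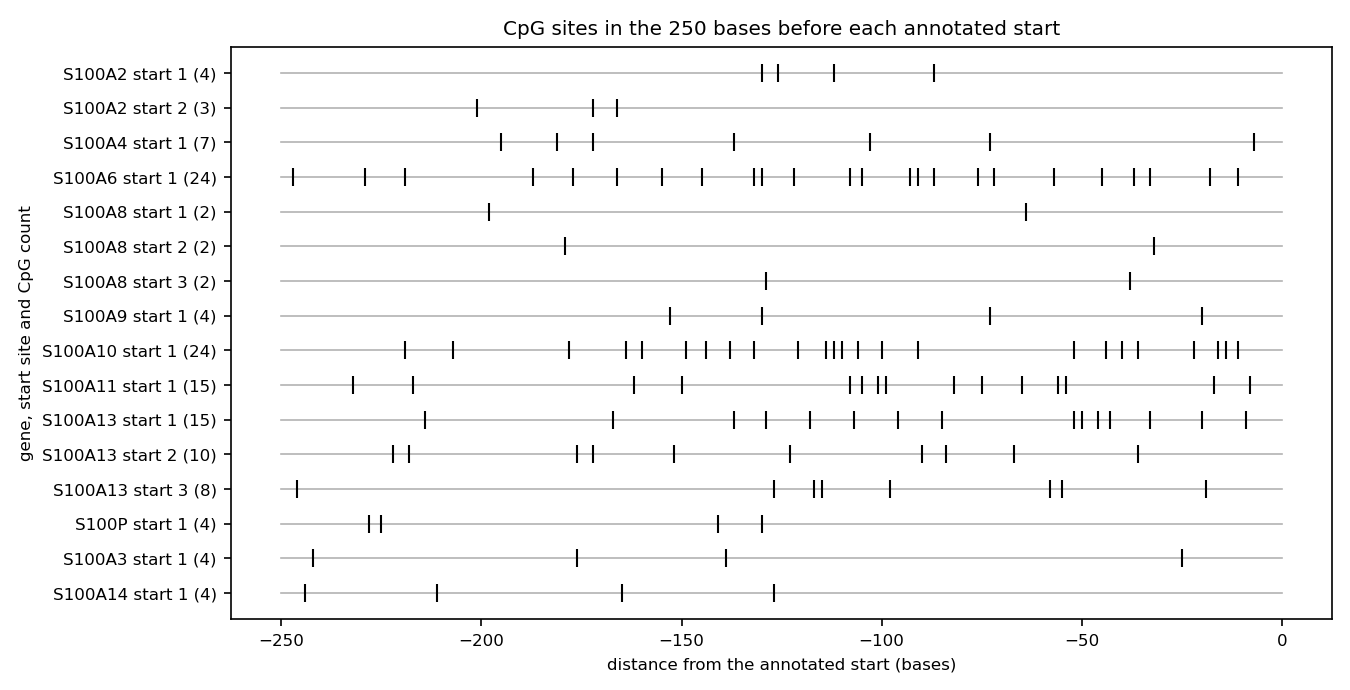
CpG sites in the 250 bases before each annotated start of the members and of S100A3 and S100A14. Each tick is 1 CpG, the horizontal axis is the distance in bases from the start, and the number in brackets is the count, which runs from 2 for S100A8 to 24 for S100A6 and S100A10.

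In vehicle-treated cells 5 of the 7 tested members differed between the lines in the test given below, as did 65.2% of all tested genes. S100A6, calcyclin, gave signals of 11525 and 12270 in A549 and 5.29 and 2.58 in H1299. S100A4, a myosin-binding member linked with metastasis, gave 10312 and 11949 in A549 and 66 and 83.8 in H1299. S100P, a member that acts outside cells on the receptor RAGE, gave 923 and 1225 in A549 and 7.91 and 5.6 in H1299. Each of these genes was thus among the brighter probe sets in A549 and below the array median (92.7 to 123 over the arrays) in vehicle-treated H1299.

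The remaining tested members were bright in both lines. S100A10, the partner of annexin A2, gave 11446 and 12642 in A549 and 3397 and 3716 in H1299. S100A11, which binds annexin A1, gave 6706 and 7375 in A549 and 2592 and 2988 in H1299. S100A13, which takes part in the release of FGF1 from cells, gave 981 and 1007 in A549 and 1149 and 1215 in H1299, and S100A2 gave 346 and 341 in A549 and 387 and 319 in H1299. The arrays of the lines did not overlap for S100A10, S100A11 and S100A13, and overlapped for S100A2.

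Differences were taken as log2(signal + 32), tested with limma over all 28 arrays and adjusted by Benjamini-Hochberg over 8024 genes. A gene was called at an adjusted p under 0.05. The added 32 draws differences of dim genes toward 0. Of the 7 tested members 5 were called higher in A549 and none lower, while 32.3% of all tested genes were called higher and 32.8% lower. The differences were 8.38 for S100A6 (SE 0.10), 6.71 for S100A4 (SE 0.17), 4.82 for S100P (SE 0.22), 1.75 for S100A10 (SE 0.09) and 1.33 for S100A11 (SE 0.10). The largest adjusted p among the 5 was that of S100A11 (1.55e-10). S100A2 differed by -0.03 (95% interval -0.24 to 0.18) and S100A13 by -0.24 (95% interval -0.48 to -0.01), neither past the threshold. The median of the 7 members was 1.75, against -0.0025 over all genes. Centring arrays on their medians moved the split over all genes to 25.3% higher and 39.6% lower and left all 5 members called higher. It also brought S100A13 to a call at -0.39 (adjusted p = 0.0117). A pseudocount 4 times as large gave 3.15 for S100P, and 1 in place of 32 gave 11.29 for S100A6. Below, these are the larger and the smaller pseudocount.

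**Figure D2:**
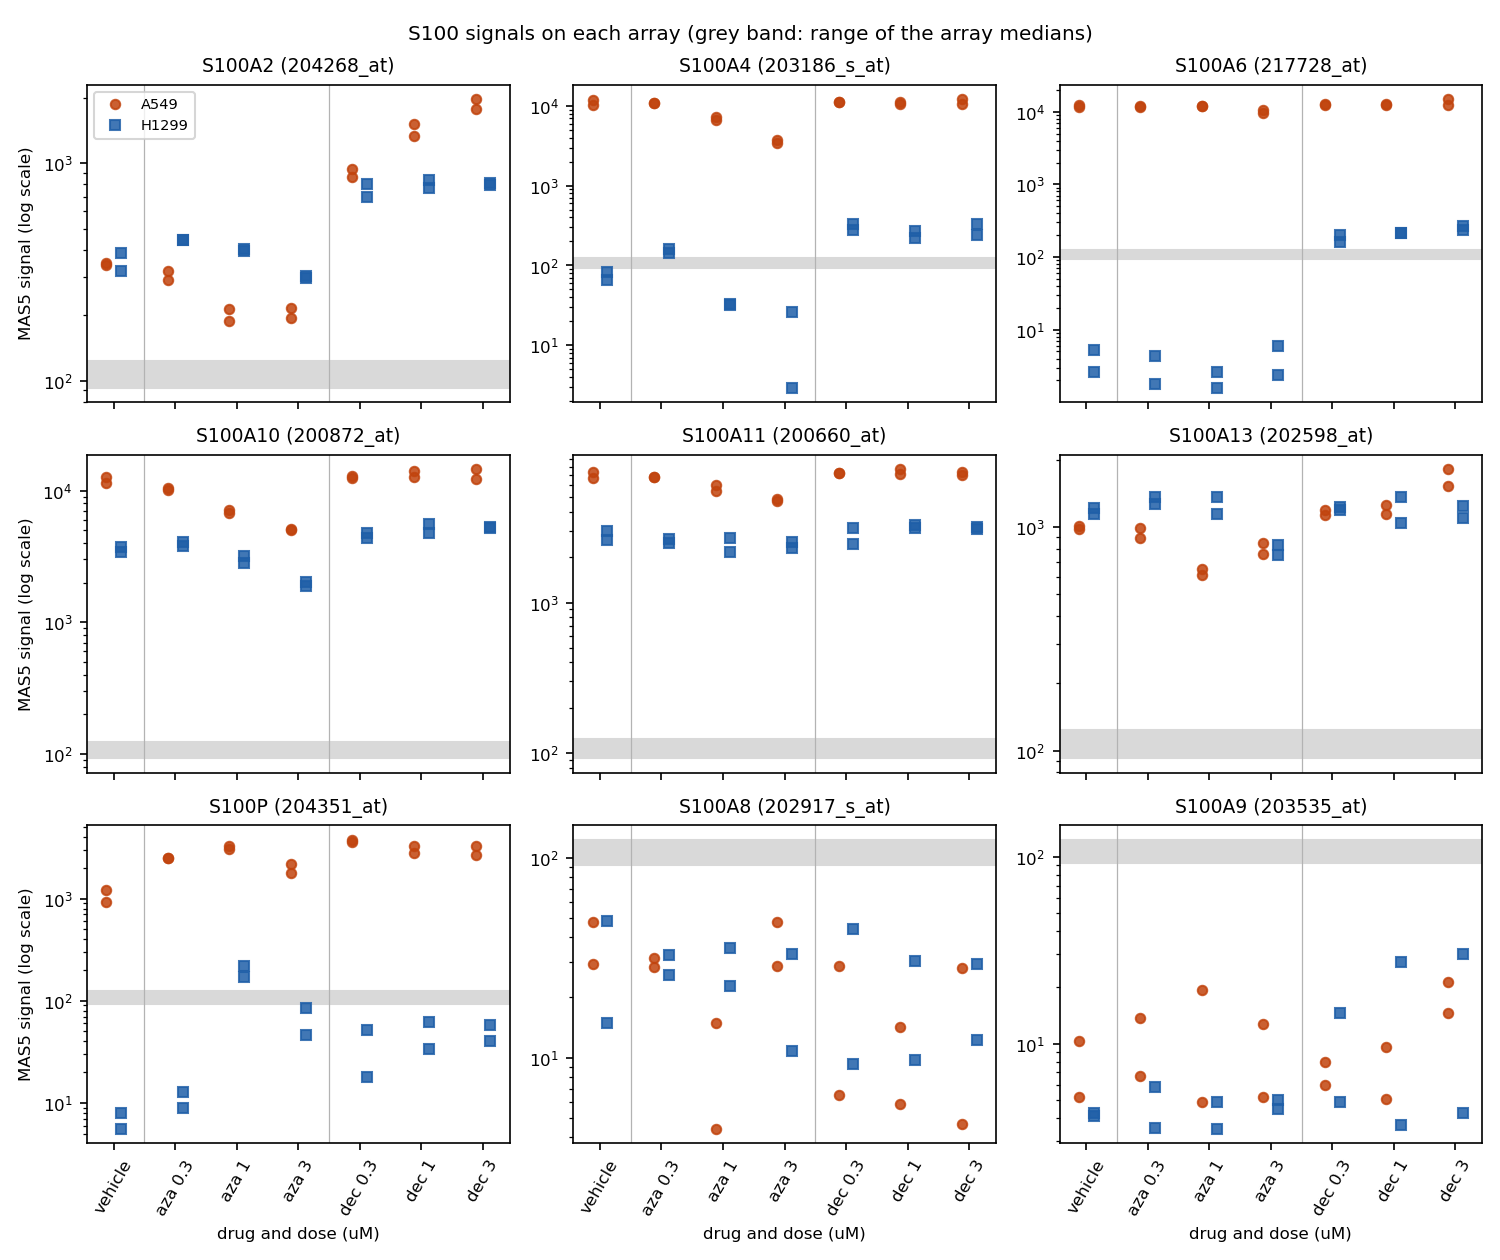
MAS5 signal of each member on each of the 28 arrays, on a log axis, by line, drug and dose, for the brightest probe set of the gene. Each point is 1 array, and the grey band spans the array medians. S100A6 in H1299 lies below 6 without decitabine and between 159 and 263 with it.

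S100A10 fell with azacitidine at 1 and 3 µM in both lines and rose with decitabine in H1299. In A549 the S100A10 signal was 10435 and 10049 with 0.3 µM azacitidine, 6824 and 7092 with 1 µM and 5074 and 5020 with 3 µM. In H1299 it was 4064 and 3808 with 0.3 µM, 2814 and 3182 with 1 µM and 2007 and 1897 with 3 µM. The 2 arrays with 3 µM lay below both vehicle arrays in each line. S100A10 fell by 1.25 in A549 (SE 0.09, adjusted p = 1.88e-09) and by 0.85 in H1299 (SE 0.09, adjusted p = 9.46e-08) at 3 µM. With 1 µM it fell by 0.79 in A549 and by 0.25 in H1299. The H1299 call at 1 µM (adjusted p = 0.042) was lost without replicate 1 of the treated group (-0.16, adjusted p = 0.308) or without replicate 2 of the vehicle (-0.18, adjusted p = 0.256).

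With decitabine the S100A10 signal in H1299 was 4388 and 4806 at 0.3 µM, 4735 and 5593 at 1 µM and 5281 and 5187 at 3 µM, all above both vehicle arrays. It rose by 0.37, 0.53 and 0.55 (adjusted p = 9.22e-05 at 3 µM). The rise at 0.3 µM lost its call without replicate 1 of the vehicle (0.30, adjusted p = 0.095) or replicate 2 of the treated group (0.30, adjusted p = 0.0806). In A549 the signal was 14535 and 12291 at 3 µM, and the difference of 0.15 (95% interval -0.04 to 0.34) was not called. The window of S100A10 shown above was among the CpG-dense ones, and its part in these differences was not tested.

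S100A11 gave 4699 and 4852 in A549 and 2506 and 2286 in H1299 with 3 µM azacitidine. It fell by 0.56 in A549 (SE 0.10, adjusted p = 0.000157). Its difference in H1299 was -0.22 (95% interval -0.42 to -0.01) and did not pass, or -0.32 without replicate 1 of the vehicle (adjusted p = 0.0347). The treated and vehicle arrays did not overlap in either line. In A549 at 1 µM the difference of -0.29 was called (adjusted p = 0.0384), and the call was lost without any 1 of the 4 arrays involved, with differences of -0.36 to -0.22. It was also lost with median centring (-0.16, adjusted p = 0.341). With decitabine S100A11 was not called at any dose in either line, with differences between -0.0047 and 0.20.

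S100A4 fell with azacitidine at 1 and 3 µM in both lines and rose with decitabine in H1299. The A549 signals were 10962 and 10918 with 0.3 µM, 6585 and 7328 with 1 µM and 3426 and 3804 with 3 µM. In H1299 they were 163 and 143 with 0.3 µM, 32 and 33.3 with 1 µM and 2.93 and 26.4 with 3 µM. At 0.3 µM the H1299 arrays lay above the vehicle and at 1 and 3 µM below it, while in A549 the arrays at 1 and 3 µM lay below the vehicle. At 3 µM S100A4 fell by 1.61 in A549 (SE 0.17, adjusted p = 2.46e-07) and by 1.24 in H1299 (SE 0.17, adjusted p = 2.68e-06). Of the H1299 arrays at 3 µM 1 lay below the 25th percentile of its own array (2.93 against 20.4) and 1 above it but below the array median (26.4 against 18.6), and the size there ran from -2.86 with the smaller pseudocount to -0.51 with the larger. At 1 µM it fell by 0.67 in A549 and by 0.72 in H1299. The A549 call was lost without replicate 2 of the vehicle (-0.57, adjusted p = 0.0571) or replicate 1 of the treated group (-0.60, adjusted p = 0.0505), and both calls were lost with the smaller pseudocount (-0.68 and -1.16, adjusted p = 0.321 and 0.0608). The rise of 0.80 in H1299 at 0.3 µM (adjusted p = 0.00852) was lost without replicate 1 of the vehicle (0.68, adjusted p = 0.111) or replicate 1 of the treated group (0.72, adjusted p = 0.0802). The smaller and larger pseudocounts gave 1.03 (adjusted p = 0.216) and 0.47.

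With decitabine S100A4 rose in H1299, to 329 and 281 at 0.3 µM, 223 and 270 at 1 µM and 335 and 241 at 3 µM. All 6 arrays lay above the array medians and above the vehicle. The differences were 1.66, 1.38 and 1.57 (SE 0.17, adjusted p = 4.12e-07 at 3 µM). Between 3 and 0.3 µM the difference was -0.09 (95% interval -0.44 to 0.27). With the larger pseudocount the differences from vehicle were 1.09, 0.88 and 1.03. In A549, where the gene was already bright, the signals were 12275 and 10482 at 3 µM and the difference was 0.03 (95% interval -0.32 to 0.38).

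S100A6 rose in H1299 with decitabine and was called against vehicle in no other group. Its H1299 signal went from 5.29 and 2.58 with vehicle to 198 and 159 with 0.3 µM decitabine, 214 and 217 with 1 µM and 263 and 235 with 3 µM. With azacitidine it was 4.31 and 1.8 at 0.3 µM, 1.59 and 2.65 at 1 µM and 2.38 and 5.91 at 3 µM. All 6 decitabine arrays lay above the array medians, and all 8 other H1299 arrays lay below 6. The differences from vehicle were 2.55, 2.79 and 2.97 with decitabine (SE 0.10, adjusted p = 2.21e-15 at 3 µM). At 3 µM azacitidine the difference was 0.01 (95% interval -0.19 to 0.21). The added 32 sets the size of this difference, which at 3 µM decitabine was 5.72 with the smaller pseudocount and 1.52 with the larger, and stayed called in each of 17 alternatives. The rise from 0.3 to 3 µM (0.42, adjusted p = 0.00769) was lost without replicate 2 of the lower dose (0.29, adjusted p = 0.113) or replicate 1 of the higher dose (0.35, adjusted p = 0.105), and with the smaller pseudocount (0.48, adjusted p = 0.333). The decitabine signals in H1299 were still far below those of A549, where S100A6 ranged from 9739 to 15016 over all 14 arrays. In A549 the differences at 3 µM were -0.22 with azacitidine (adjusted p = 0.0793) and 0.19 with decitabine (adjusted p = 0.153). Without replicate 2 of the 3 µM decitabine group the latter was 0.34 (adjusted p = 0.0299).

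S100A2, an epithelial member, rose with decitabine in both lines. In A549 the signals were 346 and 341 with vehicle, 945 and 866 with 0.3 µM, 1330 and 1518 with 1 µM and 1781 and 1977 with 3 µM. Each dose lay above the one before it with no overlap. In H1299 they were 387 and 319 with vehicle, 801 and 697 with 0.3 µM, 768 and 841 with 1 µM and 796 and 808 with 3 µM. All treated H1299 arrays lay above the vehicle and overlapped between doses. S100A2 rose by 1.32, 1.95 and 2.34 in A549 (SE 0.10, adjusted p = 9.08e-13 at 3 µM) and by 1.02, 1.12 and 1.12 in H1299 (SE 0.10, adjusted p = 3.81e-08 at 3 µM). Between 0.3 and 3 µM it rose by 1.03 in A549 (adjusted p = 3.41e-06), and in H1299 the difference was 0.10 (95% interval -0.12 to 0.31). The window of S100A2 shown above was among the CpG-poor ones, and its part in these differences was not tested.

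Azacitidine moved S100A2 the other way in A549. Signals were 320 and 290 at 0.3 µM, 188 and 213 at 1 µM and 216 and 194 at 3 µM. All 6 arrays lay below the vehicle, and S100A2 fell by 0.69 and 0.67 at the 2 higher doses (adjusted p = 2.70e-05 at 3 µM). In H1299 with 3 µM azacitidine it gave 295 and 302, a difference of -0.22 that was not called (adjusted p = 0.083). It was called without replicate 2 of the vehicle (-0.34, adjusted p = 0.0222). At 0.3 µM (445 and 442) and 1 µM (394 and 402) the H1299 arrays lay above the vehicle, by 0.31 (adjusted p = 0.0807) and 0.17 (adjusted p = 0.224), and the difference at 0.3 µM was called with median centring (0.39, adjusted p = 0.0393).

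S100P was the 1 member called higher with both drugs in both lines at 3 µM, where its H1299 signals were all below the array medians. In A549 its signals with azacitidine were 2478 and 2491 at 0.3 µM, 3028 and 3265 at 1 µM and 1787 and 2165 at 3 µM. With decitabine they were 3766 and 3559 at 0.3 µM, 2789 and 3282 at 1 µM and 3246 and 2651 at 3 µM. All 12 treated arrays lay above both vehicle arrays, and the highest dose of each drug was not the brightest. The differences were 1.20, 1.54 and 0.87 with azacitidine and 1.75, 1.48 and 1.44 with decitabine (SE 0.22). The azacitidine calls at 0.3 µM (adjusted p = 0.00408) and 3 µM (adjusted p = 0.00321) were lost without replicate 1 of the vehicle (1.00, adjusted p = 0.0859, and 0.67, adjusted p = 0.0553). That array had the highest 25th percentile of all 28. They were also lost without the 3 arrays of highest 25th percentile (adjusted p = 0.0997 and 0.0615) and with the smaller pseudocount (adjusted p = 0.0809 and 0.0598).

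In H1299 the S100P signals were 8.99 and 12.9 with 0.3 µM azacitidine, 217 and 169 with 1 µM and 85.5 and 46.6 with 3 µM. With decitabine the H1299 signals were 18 and 51.3 at 0.3 µM, 33.7 and 61.4 at 1 µM and 57.5 and 40.3 at 3 µM. Both arrays with 1 µM azacitidine, and no other array of this line, were above the array medians. S100P rose by 2.53 there (SE 0.22, adjusted p = 1.40e-08), and the smaller and larger pseudocounts gave 4.65 and 1.25. At 3 µM it rose by 1.31 with azacitidine (adjusted p = 2.89e-05) and by 1.05 with decitabine (adjusted p = 0.000865), with sizes of 3.06 and 0.52, and of 2.68 and 0.39, under the same pseudocounts. At 1 µM decitabine it rose by 1.02 (2.60 and 0.38). The 0.3 µM decitabine difference of 0.74 (adjusted p = 0.0219) was lost without any 1 of 3 arrays, replicate 1 (0.78, adjusted p = 0.0743) or 2 (0.69, adjusted p = 0.106) of the vehicle or replicate 2 of the treated group (0.37, adjusted p = 0.327). Without replicate 1 of the treated group it was 1.10, and with the smaller and larger pseudocounts it was 2.04 and 0.26. The 0.3 µM azacitidine difference was 0.15 (95% interval -0.31 to 0.60).

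S100A13 moved in opposite directions with the 2 drugs in A549. There it gave 611 and 650 with 1 µM and 761 and 846 with 3 µM azacitidine, and 1139 and 1254 with 1 µM and 1812 and 1519 with 3 µM decitabine. These azacitidine arrays lay below the vehicle and the decitabine arrays above it, while at 0.3 µM azacitidine (990 and 893) the arrays overlapped the vehicle. S100A13 fell by 0.63 at 1 µM azacitidine (adjusted p = 0.00031) and rose by 0.72 at 3 µM decitabine (SE 0.11, adjusted p = 7.36e-05). The fall of 0.30 at 3 µM azacitidine had adjusted p = 0.0422 and lost its call in 7 of 17 alternatives, among them leaving out replicate 1 (adjusted p = 0.0926) or 2 (adjusted p = 0.147) of the vehicle or replicate 1 of the treated group (adjusted p = 0.241). In H1299 with 3 µM azacitidine it gave 836 and 749 and fell by 0.56 (adjusted p = 0.000246). With decitabine its H1299 differences lay between -0.01 and 0.03 and none was called. The second S100A13 probe set, between 10.6 and 64.1 over all arrays, never exceeded an array median and was not tested.

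S100A8 and S100A9 form calprotectin, an abundant protein of neutrophils and monocytes that binds metal ions and signals through TLR4 and RAGE. Neither gene exceeded the array median on any of 28 arrays. S100A9 ranged from 4.89 to 21.3 in A549 and from 3.51 to 30.2 in H1299, and the brighter S100A8 probe set from 4.41 to 47.6 and from 9.26 to 48.0. The other S100A8 probe set lay between 0.289 and 9.15. The 2 highest S100A9 values in H1299 were 1 array each of 1 and 3 µM decitabine (27.3 and 30.2), with 3.67 and 4.23 on the other array of the same groups. At such signals no order was read between groups. Among 12 leukocyte markers on the array 1, ITGAM, passed the filter. It rose with 3 µM decitabine in A549 (0.65) and H1299 (0.56), as S100A2 and S100P did, and its part in those results was not tested. Over all arrays the sum of all 12 was 304 to 544 in A549 and 323 to 478 in H1299.

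At 3 µM the family can be read as counts beside all tested genes. In A549 with azacitidine 5 of 7 members were called lower (16.2% of all genes) and 1 higher (22.1%), with a median of -0.56 against 0.06 over all genes. In A549 with decitabine 3 were called higher (15%) and none lower (10.8%), with a median of 0.19 against 0.01. In H1299 with azacitidine 3 were called lower (21.6%) and 1 higher (32.2%), with a median of -0.22 against 0.08. In H1299 with decitabine 5 were called higher (16.3%) and none lower (14.6%), with a median of 1.05 against -0.01. The median member thus lay below that of all genes with azacitidine and above it with decitabine in both lines. These 4 comparisons share the vehicle arrays of each line, and the members were chosen with earlier results of these data known.

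The lower doses were counted in the same way, except that the shares here are of genes called in either direction. With azacitidine at 0.3 µM 1 member was called in A549 (2.43% of all genes) and 1 in H1299 (5.63%), S100P and S100A4, both higher. At 1 µM 6 were called in A549, 1 higher and 5 lower (25.2%), and 3 in H1299, 1 higher and 2 lower (35.2%). Among these, the calls of S100A4 and S100A11 in A549 and of S100A10 in H1299 depended on single arrays, as given above. With decitabine at 0.3 µM 2 were called in A549 (7.69%) and 5 in H1299 (17.6%). At 1 µM the numbers were 2 (16.5%) and 5 (23.3%), all higher. S100A2 and S100P were the 2 members called in A549, and S100A2, S100A4, S100A6, S100A10 and S100P the 5 in H1299.

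**Figure D3:**
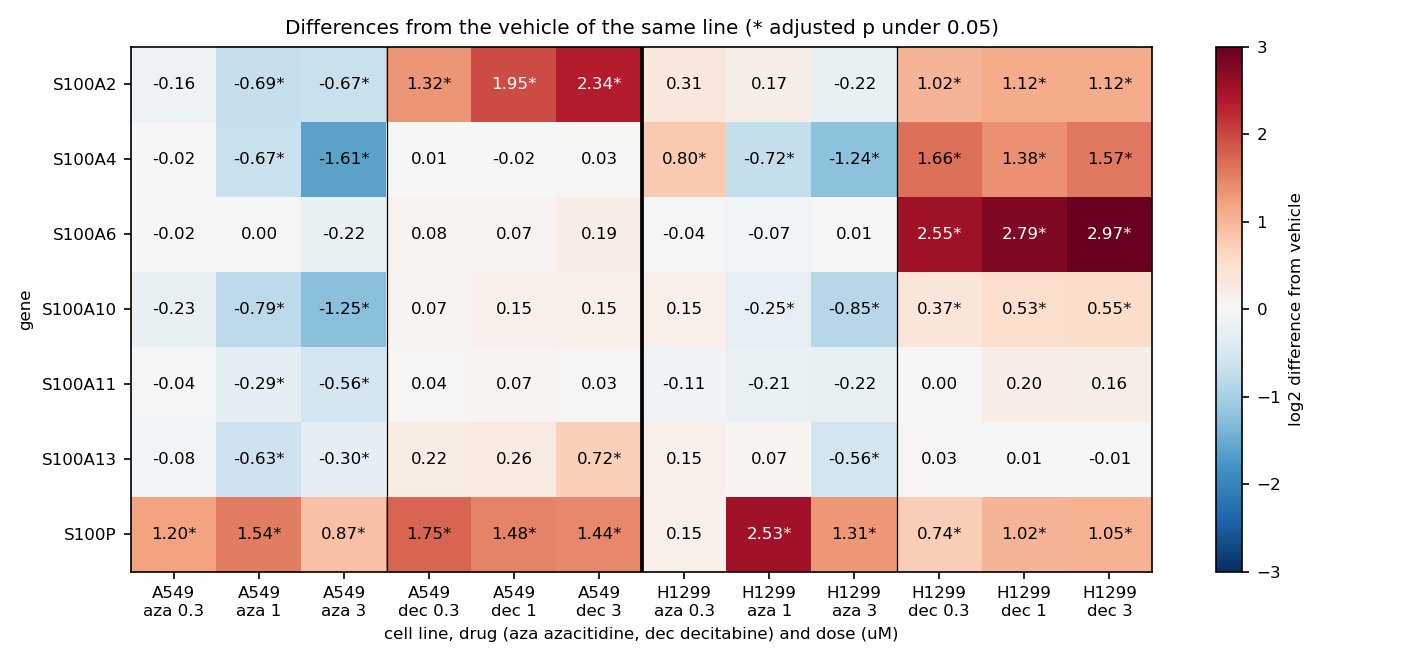
Log2 difference of each tested member from the vehicle of its line, for each drug and dose, with red for higher and blue for lower. Asterisks mark an adjusted p under 0.05 in the limma fit. The S100P row is positive in all 12 columns, and S100A6 passes 2 on the log2 scale only in the 3 H1299 decitabine columns.

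Dose was also tested directly, as 3 µM against 0.3 µM. In A549 with azacitidine 4 members were called lower and none higher. Of all 8024 genes 34.4% were called either way (1073 lower and 1687 higher). The 4 members were S100A4 (-1.59), S100A10 (-1.02), S100A11 (-0.51) and S100A2 (-0.51). In H1299 with azacitidine 4 were called lower and 1 higher (55.5% of all genes called either way, 1747 lower and 2704 higher). The lower ones were S100A4 (-2.03, or -0.98 with the larger pseudocount and -3.89 with the smaller), S100A10 (-1.0), S100A13 (-0.71) and S100A2 (-0.53), and the higher one was S100P (1.16, or 0.47 and 2.45 with the same pseudocounts). With decitabine S100A2 and S100A13 (0.50) were called higher in A549 and S100A6 in H1299, with none lower. Of all genes 9% were called either way in A549 (459 higher, 263 lower) and 9.93% in H1299 (455 higher, 342 lower). The S100A13 call was lost without replicate 2 of the lower dose (0.46, adjusted p = 0.0677) or replicate 1 of the higher dose (0.37, adjusted p = 0.135).

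The drugs were compared with each other at matched doses, in 6 pairs of groups and in the mean over the 3 doses of each line. Over the doses all 7 tested members were called lower with azacitidine than with decitabine in A549 (26.5% of all genes lower, 27.9% higher, or 21.9% and 32.3% with median centring). The differences were -2.38 for S100A2 (95% interval -2.50 to -2.25), -0.88 for S100A10, -0.78 for S100A4, -0.74 for S100A13, -0.36 for S100P, -0.34 for S100A11 and -0.19 for S100A6. Those of S100P (adjusted p = 0.0208) and S100A6 (adjusted p = 0.00618) were lost with median centring (-0.31 and -0.14, adjusted p = 0.0504 and 0.0764), and that of S100P also without any 1 of 3 arrays, replicate 1 with 3 µM azacitidine (-0.31, adjusted p = 0.0635) or, with decitabine, replicate 2 with 1 µM (-0.32, adjusted p = 0.0604) or replicate 1 with 3 µM (-0.31, adjusted p = 0.0662).

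In H1299 5 members were called lower with azacitidine over the doses (23% of all genes) and 1 higher (30.8%). S100A6 differed by -2.80 (95% interval -2.92 to -2.69), S100A4 by -1.92, S100A2 by -1.0, S100A10 by -0.80 and S100A11 by -0.30. With the larger pseudocount S100A6 differed by -1.38 and S100A4 by -1.13, and with the smaller S100A6 differed by -5.79. S100P was higher with azacitidine by 0.39 (adjusted p = 0.0115), a call lost without replicate 1 with 3 µM azacitidine (0.30, adjusted p = 0.0569), with 0.3 µM decitabine (0.27, adjusted p = 0.0607) or with 1 µM decitabine (0.31, adjusted p = 0.0521). It was 0.26 with the larger pseudocount. Single doses did not share 1 direction for S100P, at -0.59 with 0.3 µM, 1.51 with 1 µM and 0.26 with 3 µM, and only 1 µM was called. S100A13 differed by -0.12 (95% interval -0.26 to 0.01), or by -0.18 without replicate 1 with 1 µM decitabine (adjusted p = 0.0179).

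By dose, 1 member was called in A549 at 0.3 µM, 5 at 1 µM and 7 at 3 µM, all lower with azacitidine. Of all 8024 genes 5.67%, 34.3% and 50.4% were called either way at these doses, and 289, 1438 and 1911 genes were called lower. S100A2 was called at each dose, at -1.47, -2.64 and -3.01. At 3 µM S100A4 differed by -1.64, S100A10 by -1.40, S100A13 by -1.02 and S100A11 by -0.59. The calls of S100A6 (-0.41) and S100P (-0.57) at 3 µM were lost without replicate 1 with decitabine (-0.26 and -0.42, adjusted p = 0.0576 and 0.223), the array labelled as a repeat, and that of S100P also without replicate 1 with azacitidine (-0.43, adjusted p = 0.21). At 1 µM S100A11 (-0.36) lost its call without replicate 2 of either drug (-0.30 and -0.31, adjusted p = 0.0775 and 0.072). With the smaller pseudocount S100A4 at 1 µM (adjusted p = 0.309), and S100A6 and S100P at 3 µM (adjusted p = 0.251 and 0.198) and over the doses (adjusted p = 0.349 and 0.154), were not called.

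In H1299 3 members were called at 0.3 µM, all lower with azacitidine, 6 at 1 µM, 5 of them lower, and 6 at 3 µM, all lower. Of all 8024 genes 6.37%, 33.9% and 56.3% were called either way, and 322, 1201 and 1873 genes were called lower. S100A6 differed by -2.58, -2.86 and -2.96 at the 3 doses and S100A4 by -0.86, -2.10 and -2.81. With the larger pseudocount the values at 3 µM were -1.51 and -1.54, and with the smaller they were -5.69 and -4.78. S100P was the 1 member called higher with azacitidine, at 1 µM (1.51, adjusted p = 1.50e-05, or 0.87 with the larger pseudocount). At 3 µM its difference was 0.26 (95% interval -0.20 to 0.71). At 1 µM S100A11 (-0.41) lost its call without replicate 2 with azacitidine (-0.25, adjusted p = 0.106), and at 0.3 µM S100A4 lost its call without replicate 1 with decitabine (-0.76, adjusted p = 0.0517). S100P at 0.3 µM (-0.59) was called without replicate 1 with decitabine (-0.96, adjusted p = 0.0254). With the smaller pseudocount S100A4 at 0.3 µM (adjusted p = 0.247) and S100P over the doses (adjusted p = 0.183) were not called.

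**Figure D4:**
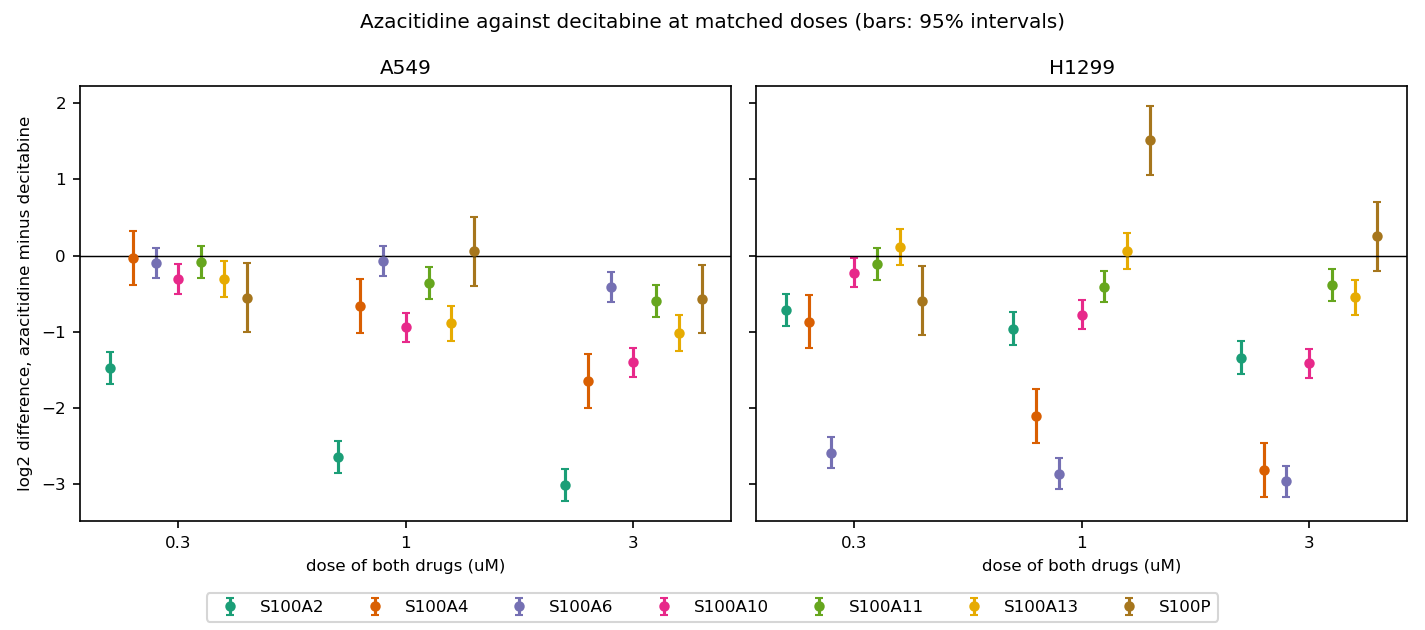
Azacitidine minus decitabine at each matched dose, on the log2(signal + 32) scale, for the 7 tested members in each line. Points are fitted differences and bars are 95% intervals. S100A2 in A549 reaches -3.01 at 3 µM, S100A6 in H1299 -2.96, and S100P in H1299 stands at 1.51 at 1 µM.

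The response at 3 µM was tested between the lines, as the A549 difference minus the H1299 difference. For decitabine 2 members were called higher in A549 (9.42% of all genes) and 3 lower (7.85%). S100A2 (1.22, adjusted p = 4.76e-06) and S100A13 (0.73, adjusted p = 0.00293) responded more in A549. S100A6 (-2.78, adjusted p = 2.67e-11) and S100A4 (-1.54, adjusted p = 0.000131) responded more in H1299, where they were dim before treatment. With the larger pseudocount these were -1.33 and -1.0, and with the smaller they were -5.53 and -1.89 (adjusted p = 0.0572 for S100A4). S100A10 (-0.40, adjusted p = 0.0349) lost its call in 9 of 20 alternatives, among them leaving out replicate 2 of the A549 vehicle or of A549 with 3 µM, replicate 1 of the H1299 vehicle, or either H1299 array with 3 µM (adjusted p = 0.0734 to 0.166).

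For azacitidine none of the members was called higher (13.9% of all genes) and 2 were called lower in A549 (17.4%), S100A2 (-0.45, adjusted p = 0.0216) and S100A10 (-0.39, adjusted p = 0.0249). The S100A2 call was lost without replicate 1 of the A549 vehicle, replicate 2 of the H1299 vehicle or replicate 2 with 3 µM in either line (adjusted p = 0.0539 to 0.132). The S100A10 call was lost without replicate 2 of the A549 vehicle, replicate 1 of the H1299 vehicle, either A549 array with 3 µM or replicate 1 in H1299 (adjusted p = 0.0505 to 0.1). S100A4 differed by -0.37 (95% interval -0.87 to 0.13) and S100P by -0.44 (95% interval -1.08 to 0.20). Without replicate 1 of H1299 with 3 µM S100A4 was called at -0.75 (adjusted p = 0.0101). With the larger pseudocount S100A4 was called at -1.08 (adjusted p = 1.62e-05), and with the smaller it turned to 1.24 (adjusted p = 0.174). S100P was called at -2.18 with the smaller pseudocount (adjusted p = 0.00284) and turned to 0.29 with the larger (adjusted p = 0.253). For decitabine S100P differed by 0.38 (95% interval -0.26 to 1.02), or by -1.22 with the smaller pseudocount (adjusted p = 0.111) and 0.97 with the larger (adjusted p = 0.00108), so the direction between the lines turns with the added constant for S100P with both drugs and for S100A4 with azacitidine. For azacitidine S100A11 (-0.34) was called without replicate 2 of the H1299 vehicle (-0.44, adjusted p = 0.042).

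The tested S100 genes of chromosome 1 follow the RefSeq order (GRCh38.p14) S100A10, S100A11, S100A6, S100A4, S100A3, S100A2, S100A14 and S100A13, and S100P lies on chromosome 4. In this order neighbours did not share 1 response to 3 µM decitabine in A549. In H1299 the tested run from S100A6 to S100A2 had positive differences throughout. With decitabine S100A6, S100A4 and S100A2 rose in H1299, where S100A3, which lies between S100A4 and S100A2, differed by 0.72 (SE 0.31, adjusted p = 0.0891). Over the H1299 arrays S100A3 lay between 5.14 and 68.0, below every array median, so the missing call there is not read as a lack of response. In A549 S100A2 and S100A3 rose (S100A3 by 1.95, SE 0.31), while S100A4 next to S100A3 differed by 0.03. S100A3, which is no member, gave 542 with vehicle, 2177 with 3 µM decitabine and 207 with 3 µM azacitidine in A549 (means of 2 arrays), and fell by 1.27 with the latter. S100A14 passed the filter through the 2 A549 arrays with 3 µM decitabine, the only ones of 28 where it exceeded the array median, so its difference of 0.79 in A549 with decitabine is a description. The other 6 S100 genes on the array, S100A1, S100A5, S100A7, S100A12, S100B and S100G, never exceeded an array median.

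**Figure D5:**
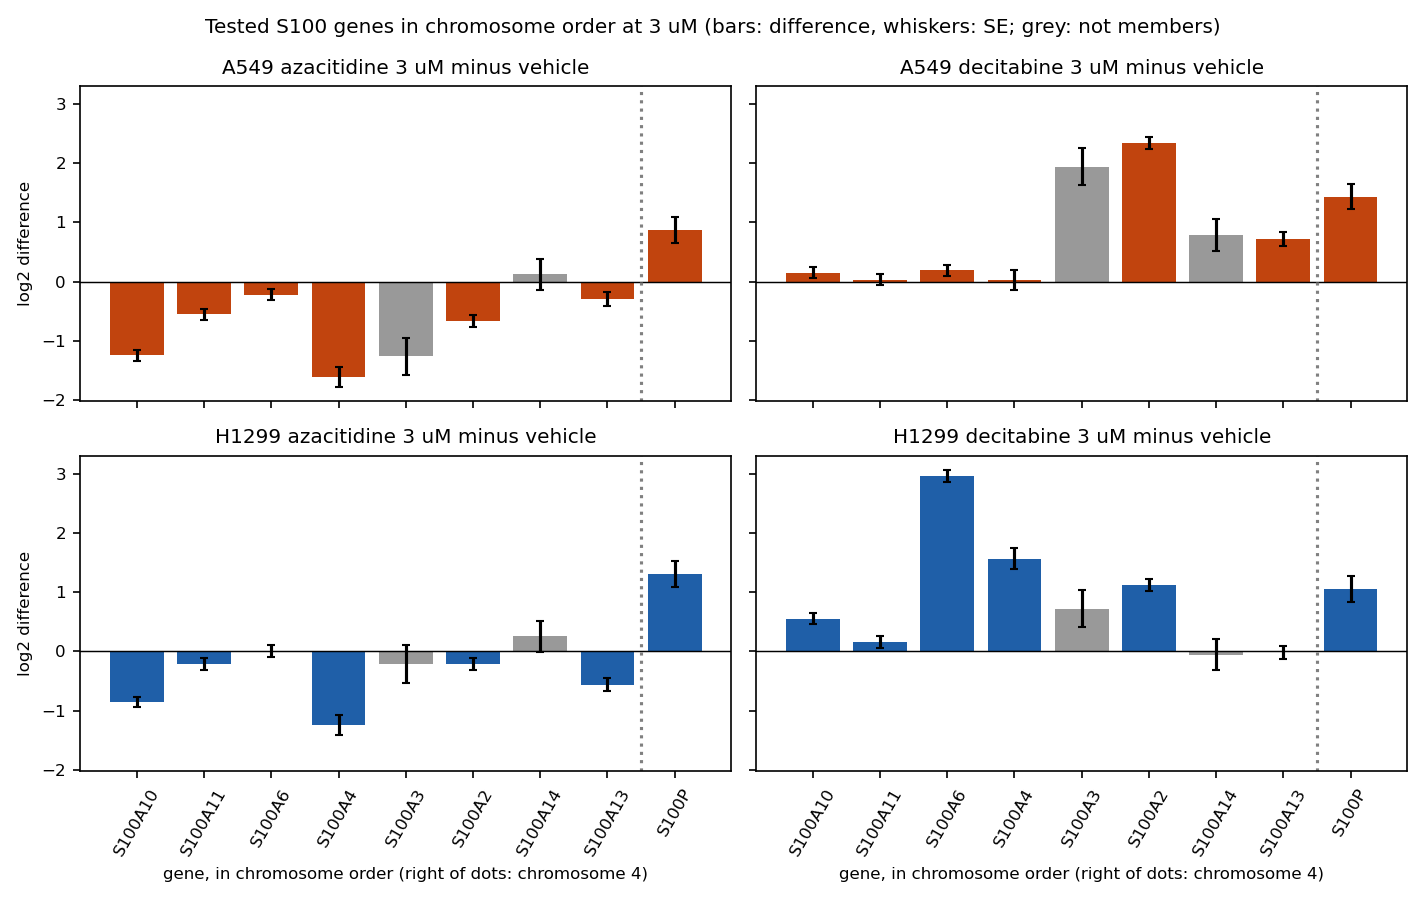
Log2 differences from vehicle at 3 µM for the tested S100 genes, in chromosome order. Bars are fitted differences with SE whiskers, coloured bars are members, grey bars are S100A3 and S100A14, and S100P to the right of the dotted line lies on chromosome 4. With decitabine the tallest bars are S100A2 (2.34) in A549 and S100A6 (2.97) in H1299.

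Genes around the cluster were counted at 3 µM beside all genes. Of 11 tested flanking genes 1 was called higher (22.1% of all genes) and 2 lower (16.2%) in A549 with azacitidine, and 1 higher (15%) and 1 lower (10.8%) with decitabine. In H1299 5 were called higher (32.2%) and 2 lower (21.6%) with azacitidine, and 2 higher (16.3%) and 0 lower (14.6%) with decitabine. The largest was TUFT1, an enamel-associated gene, at 1.02 in H1299 with azacitidine, followed by DENND4B (0.61) and RAB13 (-0.61). Of the epidermal differentiation genes 2 of 17 were tested, and CRCT1 rose by 0.86 in A549 with decitabine.

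Proteins that S100 members bind were described from a list of 29 genes, 23 of them tested. With azacitidine 8 were called lower (16.2% of all genes) and 2 higher (22.1%) in A549, and 13 lower (21.6%) and 4 higher (32.2%) in H1299. With decitabine 1 was lower (10.8%) and 3 higher (15%) in A549, and 5 lower (14.6%) and 2 higher (16.3%) in H1299. The list medians were -0.20, -0.52, 0.07 and -0.09 in that order. The largest changes were in H1299 with azacitidine, in MYH10, a nonmuscle myosin heavy chain (-1.34), AHNAK, a scaffold bound by the S100A10-annexin A2 complex (-1.18), and ANXA6, annexin A6 (-1.01). The closest partners were looked up for their role after their values were seen. ANXA2, the partner of S100A10, fell by 0.78 in H1299 with azacitidine and differed by 0.07 in A549 (adjusted p = 0.695), where S100A10 fell by 1.25. MYH9, the myosin that S100A4 binds, fell by 0.43 in A549 and by 0.73 in H1299 with azacitidine. The receptors AGER (RAGE), TLR4 and CD36 did not pass the filter.

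Other EF-hand genes were counted in the same way. Of 27 tested, 14 were lower (16.2% of all genes) and 2 higher (22.1%) in A549 with azacitidine, and 18 lower (21.6%) and 3 higher (32.2%) in H1299. With decitabine 3 were lower (10.8%) and 6 higher (15%) in A549, and 6 lower (14.6%) and 2 higher (16.3%) in H1299. CALML4, a calmodulin-like gene, fell by 1.33 in H1299 with decitabine. HPCAL1, a neuronal calcium sensor gene, and MYL9, a myosin light chain, fell by 1.29 and 1.29 in H1299 with azacitidine. Of 9 tested genes reported to regulate S100 genes, 3 were higher and 3 lower in A549 with azacitidine, 5 and 2 in H1299 with azacitidine, 1 and 0 in each line with decitabine, against the same shares of all genes. CEBPB (2.09), CEBPA (1.54) and RELA (1.27), transcription factors of inflammation and differentiation, rose in H1299 with azacitidine.

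At 3 µM most epithelial markers rose with decitabine in both lines and fell with azacitidine in A549, and their part in the results was not tested. In A549 with azacitidine S100A2, S100A4, S100A10, S100A11 and S100A13 fell as well, while S100P rose. With decitabine S100A2, S100A13 and S100P rose in A549, and S100A2, S100A4, S100A6, S100A10 and S100P in H1299. In A549 S100A6 was called with neither drug at 3 µM. All 6 listed markers were tested. In A549 5 exceeded the array median with vehicle, 6 with 3 µM decitabine and 3 with 3 µM azacitidine. In H1299 the numbers were 2, 5 and 2. A marker may thus have met the filter through decitabine arrays, so the counts of markers that rose are a description. The summed signal of the 6 markers was 18960 to 21370 in A549 with vehicle, 22710 to 27050 with 3 µM decitabine and 12620 to 13810 with 3 µM azacitidine. In H1299 the sums were 5019 to 5237, 8493 to 8751 and 3698 to 3778. With decitabine 4 of 6 rose in A549 (15% of all genes) and 5 of 6 in H1299 (16.3%), the largest being EPCAM (2.51), KRT19 (2.35) and CLDN7 (2.31) in H1299. With azacitidine 4 of 6 fell in A549 (16.2%) and 1 of 6 in H1299 (21.6%). No squamous marker of 3 on the array passed the filter, and 2 of 4 alveolar type II and 2 of 5 fibroblast markers did.

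A measure of RNA quality, the actin ratio, was higher with 3 µM azacitidine than with vehicle in both lines. The ratio of 3′ to 5′ actin probe signals was 3.40 and 3.08 in vehicle-treated A549 and 4.90 and 5.36 with 3 µM azacitidine, against 4.16 and 3.42 with 3 µM decitabine. In H1299 it was 4.59 and 6.05, 6.28 and 6.21, and 4.79 and 4.41. At 1 µM the A549 actin ratio was 4.16 and 4.79 with azacitidine and 3.59 and 4.91 with decitabine. With this ratio as a covariate, added after seeing the data, the A549 azacitidine difference of S100A13 at 3 µM was -0.57 (adjusted p = 0.000404) and that of S100P lost its call (0.60, adjusted p = 0.0922). The drug difference of S100P over doses in H1299 also lost its call (0.24, adjusted p = 0.2), and that of S100A13 gained one (-0.28, adjusted p = 0.000839). The 25th percentile of signal was 28.2 and 20.1 in the A549 vehicle and 25.7 and 20.98 with 3 µM azacitidine, so these overlapped. The ratio of 3′ to 5′ probe signals of GAPDH, another control gene, stayed nearer 1. In A549 it was 0.992 and 1.01 with vehicle and 1.06 and 1.11 with 3 µM azacitidine. In H1299 it was 0.976 and 0.944, and 1.21 and 1.18.

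Genes with the most similar response were listed by Pearson correlation over the 12 treated groups of the difference from vehicle, as a description, since groups of a line share their vehicle. The correlation takes no account of size. The largest difference of each gene listed ran in size from 0.33 (IGF1R) to 2.81 (KHDC1L). S100A2 was nearest to HSPB8 (0.973), COL6A1 (0.969) and NINJ2 (0.967). S100A4 was nearest to AP1M2 (0.980), CPNE1 (0.974) and ECH1 (0.965). S100A6 was nearest to RIN2 (0.981), KHDC1L (0.972) and IGFBP3 (0.967). S100A10 was nearest to GLRX (0.975), ITGAV (0.970) and FN1 (0.970). For S100P the nearest genes, WDR41 (0.841), MGMT (0.799) and IGF1R (0.773), were less like it than those of the other 4 members.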

How the data were processed

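RNA of 28 samples was hybridised to Affymetrix HG-U133 A 2.0 arrays, and the deposited values are MAS5 signal intensity on a linear scale for 22277 probe sets, per the submitters' processing notes. No version or scaling target is given in the sources used here. The trimmed mean was 500.125 to 500.159 on every array, so the arrays share 1 target, and depth has no meaning beyond the number of arrays.

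The platform annotation named 1 gene for 19070 probe sets, several for 1043 and none for 2164. Checking Entrez identifiers against RefSeq changed 0 symbols. Probe sets above the array median on at least 2 arrays were kept, the brightest kept probe set (mean log2 signal) stood for a gene, and 8024 genes were tested. Here log2(signal + 32) was computed from the deposited intensity and fitted with limma 3.58.1 in R 4.3.3 (data.table version 1.17.8), with 1 mean for each of 14 groups, 14 residual degrees of freedom and eBayes with trend. Each of 27 comparisons was adjusted by Benjamini-Hochberg, two-sided, at 0.05. Intervals cover 95%. The fit was tested on simulated data.

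The members and all gene lists were chosen with earlier results of these data known. Besides the members, the rule named at most 3 genes of each other list, those with the largest called change at 3 µM, and the 3 genes most like each member that changed by at least log2 1. Replicate numbers are shared between groups in the labels, with nothing to say that they mark a batch. Over 42 pairs of groups the correlation of same-numbered deviations was -0.244 to 0.263 (median 0.0233, 12 over 0.1), so the numbers were not used as pairs. Alternatives were quantile normalization, median centring, pseudocounts of 1 and of 4 times 32, a 75th percentile filter or none, every kept probe set tested on its own, a fit of 1 line alone, eBayes without trend, a replicate block and leaving out each array. Covariates for the 25th percentile and the actin ratio, and leaving out the 3 arrays with the highest 25th percentile, were chosen after seeing the data.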

Additional observations from a re-analysis of the deposited data

Results flagged for a closer look

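The response at 3 µM differed between A549 and H1299 for 5 of 7 members with decitabine (17.3% of all genes). With azacitidine it did so for 2 (31.3%), a count near the share of all genes. Both counts rest on the test of the difference itself in the limma fit over 8024 genes. With decitabine S100A6 (-2.78, adjusted p = 2.67e-11) and S100A4 (-1.54, adjusted p = 0.000131) responded less in A549, where both were bright with vehicle, and so did S100A10 (-0.40, adjusted p = 0.0349). S100A2 (1.22, adjusted p = 4.76e-06) and S100A13 (0.73, adjusted p = 0.00293) responded more in A549. With azacitidine S100A2 (-0.45, adjusted p = 0.0216) and S100A10 (-0.39, adjusted p = 0.0249) had the lower difference in A549. The S100A10 call was lost in 9 of 20 alternatives with decitabine and in 6 of 20 with azacitidine. The azacitidine call of S100A2 was lost in 5 of 20, and the decitabine call of S100A4 in 1 of 20. Both arrays of every group lay on the same side of their vehicle arrays for S100A6 and S100A2 with decitabine in H1299, and for S100A2 with decitabine in A549.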

How the results depend on the processing

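Over 189 values of members (7 genes in 27 comparisons) and 3360 recomputed values, none that was called reversed, 97 lost a call and 36 gained one. Values that were not called changed sign 85 times. The counts of called members stayed within 1.5 times in 445 of 480 recomputations. The replicate block changed no count of called members in any of the 27 comparisons (6 of 7 in A549 with 3 µM azacitidine, 5 in H1299 with 3 µM decitabine), and replicate numbers have no stated meaning here. The counts that moved more were small. A549 with 0.3 µM azacitidine had 1 call, and 2 with quantile normalization or the actin covariate, 0 with the smaller pseudocount, with the 25th percentile covariate or without the 3 arrays of highest 25th percentile, and 0 to 1 when 1 array was left out. H1299 with 0.3 µM azacitidine had 1, and 2 with median centring, 0 with the smaller pseudocount or in the fit of H1299 alone, and 0 to 1 with 1 array left out. For the drug difference at 0.3 µM in A549, 1 call became 2 with quantile normalization, the 75th percentile filter, the fit of A549 alone, the 25th percentile covariate or without the 3 arrays, and 3 with the larger pseudocount or the actin covariate. For 3 µM against 0.3 µM decitabine in H1299, 1 call became 2 with quantile normalization, 0 with the smaller pseudocount or H1299 alone, and 0 to 1 with 1 array left out. The line difference in the azacitidine response had 2 calls, 1 with median centring or without the 3 arrays, and 0 to 2 with 1 array left out. H1299 with 0.3 µM decitabine ranged from 3 to 5 calls, and A549 decitabine at 3 against 0.3 µM from 1 to 2. A group left with 1 array was assumed to vary like the others. The cause of these changes was not tested. Signals below the array median limit the sizes given for S100A6, S100A4 and S100P in H1299, and 2 arrays a group limit all.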
